A study of Mus musculus with 4 samples.

Results

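WT-only regions inside gene bodies were stretches of open chromatin called as peaks in both wild-type newborn mouse hearts. Neither heart with the retinoid X receptors (RXR) alpha and beta deleted in cardiomyocytes had a peak there. These regions lay within a protein-coding gene but more than 1 kb from any protein-coding gene start or end. They were found by merging the peaks of the 4 deposited peak lists that overlapped by at least 1 bp. Of 53140 merged regions, 2718 met the rule. They made up 27.0% of the 10085 gene-body regions called in both WT hearts. The members were chosen by the peak calls of all 4 libraries, so their calls and peak heights are a description and carry no test.

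The assay was ATAC-seq, where Tn5 transposase cuts accessible DNA and joins sequencing adapters to the cut ends. The 4 libraries came from nuclei of whole hearts of C57BL/6 mice at postnatal day 0, with 1 heart per library. The edKO hearts (edKO 1 and edKO 2) carried a deletion of both RXR alpha and RXR beta (genes Rxra and Rxrb) restricted to cardiomyocytes, and the WT hearts (WT 1 and WT 2) were wild type. The sources used here do not give the driver of the cardiomyocyte deletion, the deleted exons or the sex of the hearts. Whole hearts also hold endothelial cells, fibroblasts, smooth muscle and blood cells, in which the deletion was not directed. Fewer nuclei with an open site and less access per nucleus cannot be told apart in such bulk samples. Of 10 cardiomyocyte genes looked at, among them Myh6, Tnnt2 and Ryr2, 9 had a peak at a gene end in all 4 libraries, while Nkx2-5 had none in any library.

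RXR alpha and RXR beta are nuclear receptors that bind DNA as partners of other nuclear receptors, including the PPARs, which respond to fatty acids, the retinoic acid receptors, the thyroid hormone receptors and LXR, which responds to oxysterols. Many of their binding sites lie in enhancers, stretches of regulatory DNA that are open in the cells that use them and that are often found in introns. Around birth the mouse heart turns from glucose and lactate to fatty acids as its main fuel, and PPARs and the estrogen-related receptors control many genes of that switch. The gene table used here holds gene starts and ends and no exons, so members inside exons and introns were not separated.

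A small number of members overlapped the window around a start annotated by RefSeq, so that their sequence could be read. RefSeq windows of 300 bases around starts (GRCm38.p6) overlapped 74 of the 2621 members on the chromosomes covered, and in 58 of the 74 the start belonged to the host gene itself. The start itself lay in the region in 63 of the 74. Below are the windows of the 3 strongest members with their own start and both WT summits inside, followed by 3 in genes of energy metabolism and striated muscle that were chosen after their values were seen. Each runs 5′ to 3′ on the strand of the gene, and capitals mark the bases that lie in the WT-only region.
Dalrd3, chr9:108569642-108569941, plus strand: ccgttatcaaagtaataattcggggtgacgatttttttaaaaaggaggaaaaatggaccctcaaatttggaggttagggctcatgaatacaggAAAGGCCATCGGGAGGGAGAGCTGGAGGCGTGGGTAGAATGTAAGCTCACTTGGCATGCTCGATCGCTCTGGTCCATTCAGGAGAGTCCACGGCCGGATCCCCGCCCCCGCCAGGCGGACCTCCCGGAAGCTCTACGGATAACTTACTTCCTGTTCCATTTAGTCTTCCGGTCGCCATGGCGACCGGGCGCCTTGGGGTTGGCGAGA
Mrpl22, chr11:58171414-58171713, plus strand: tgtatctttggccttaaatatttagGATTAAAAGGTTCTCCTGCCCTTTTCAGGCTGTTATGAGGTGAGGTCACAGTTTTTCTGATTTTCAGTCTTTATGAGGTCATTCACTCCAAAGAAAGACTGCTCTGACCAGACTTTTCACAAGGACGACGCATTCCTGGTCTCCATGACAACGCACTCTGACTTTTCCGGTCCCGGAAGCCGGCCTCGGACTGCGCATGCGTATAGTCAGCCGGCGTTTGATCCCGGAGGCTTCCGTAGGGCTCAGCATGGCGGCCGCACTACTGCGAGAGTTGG
Rnf145, chr11:44520039-44520338, plus strand: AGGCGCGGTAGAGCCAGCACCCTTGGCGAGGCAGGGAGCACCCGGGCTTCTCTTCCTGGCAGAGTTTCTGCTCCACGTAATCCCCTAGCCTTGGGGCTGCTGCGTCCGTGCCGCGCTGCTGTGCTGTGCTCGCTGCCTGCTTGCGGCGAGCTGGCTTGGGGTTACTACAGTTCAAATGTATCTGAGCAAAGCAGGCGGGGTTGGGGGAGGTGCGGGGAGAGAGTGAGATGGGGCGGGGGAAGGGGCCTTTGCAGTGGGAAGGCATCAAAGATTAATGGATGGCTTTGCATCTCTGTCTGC
Pfkm, chr15:98111810-98112109, plus strand: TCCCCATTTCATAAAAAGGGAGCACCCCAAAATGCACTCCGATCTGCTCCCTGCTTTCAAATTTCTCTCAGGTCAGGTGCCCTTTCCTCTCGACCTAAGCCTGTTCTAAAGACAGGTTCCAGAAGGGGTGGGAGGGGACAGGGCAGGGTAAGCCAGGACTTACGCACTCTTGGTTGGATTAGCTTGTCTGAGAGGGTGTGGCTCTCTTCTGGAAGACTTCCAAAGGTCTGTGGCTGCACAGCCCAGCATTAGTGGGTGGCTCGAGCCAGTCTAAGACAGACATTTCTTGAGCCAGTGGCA
Rpl3l, chr17:24732435-24732734, plus strand: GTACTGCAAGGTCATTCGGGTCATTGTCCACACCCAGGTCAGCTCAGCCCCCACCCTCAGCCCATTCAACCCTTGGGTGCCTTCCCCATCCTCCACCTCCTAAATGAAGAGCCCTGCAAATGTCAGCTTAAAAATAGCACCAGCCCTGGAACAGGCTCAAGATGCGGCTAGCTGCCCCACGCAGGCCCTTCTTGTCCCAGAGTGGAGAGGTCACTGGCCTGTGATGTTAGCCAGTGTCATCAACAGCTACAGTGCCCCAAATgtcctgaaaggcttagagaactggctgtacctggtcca
Lipe, chr7:25390063-25390362, minus strand: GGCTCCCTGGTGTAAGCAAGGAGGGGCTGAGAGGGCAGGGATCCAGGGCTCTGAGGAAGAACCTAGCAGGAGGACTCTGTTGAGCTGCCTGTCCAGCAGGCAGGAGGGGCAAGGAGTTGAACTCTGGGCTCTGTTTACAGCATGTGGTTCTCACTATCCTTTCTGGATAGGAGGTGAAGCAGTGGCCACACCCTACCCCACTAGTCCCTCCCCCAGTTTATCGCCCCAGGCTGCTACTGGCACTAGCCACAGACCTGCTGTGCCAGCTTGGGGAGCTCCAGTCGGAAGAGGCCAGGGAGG

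The AGGTCA hexamer bound by many nuclear receptors was searched on both strands of these windows, together with the GC box GGGCGG and the TATA box TATAAA, and none of the 3 contains another. The hexamer occurred 3 times in the Rpl3l window, 2 times in the Mrpl22 window and 1 time in the Pfkm window, and in none of the other 3 windows printed. Over all 80 start windows that overlapped a member, 12 (15.0%) held AGGTCA, against 16.2% of the 32585 start windows in the RefSeq table. The GC box was in 25 (31.2%), against 35.9% of all windows, and the TATA box in 7 (8.75%), against 13.7%. The 3 shares were lower in the members' windows than in the table, but they rest on few windows and were not tested. These windows came from 74 members, so some lay over the same region, and the overlap was as short as 8 bases. Matches were counted over all 300 bases of a window, bases outside the member included. A match is a description of the letters and not a binding site.

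In WT hearts these 6 regions were of moderate height. A peak's height is given here as its pileup, the number of reads or DNA fragments stacked over the summit. The sources used here do not say which of these was counted. Pfkm, the muscle phosphofructokinase of glycolysis, had pileups of 26 in WT 1 and 24 in WT 2 (chr15:98111802-98112118), and its nearest edKO peak lay 2890 bp away. Lipe, the hormone-sensitive lipase, had 29 and 40 in WT 1 and WT 2 (chr7:25389970-25390402). Rpl3l, a ribosomal protein gene active in heart and skeletal muscle, had 31 and 43 (chr17:24732417-24732696). The region of Mrpl22, a protein of the mitochondrial ribosome, had 44 and 33, that of Dalrd3 had 57 and 61, and that of Rnf145, a ubiquitin ligase, had 26 and 40.

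Members also covered mature microRNAs at 3 places. They are shown because they name a second gene product that shares the region with the host gene. Capitals mark the seed, bases 2 to 8, and no seed was shared between them.
mmu-miR-1960, inside Hadhb: cCAGUGCUguuagaagagggcu
mmu-miR-7117-5p, inside Ank: uCUGGGGGcucagcugaggaua
mmu-miR-3086-5p, inside Hspa12a: uAGAUUGUaggcccauugga
mmu-miR-3086-3p, inside Hspa12a: cCCAAUGAgccuacagucuaag
Hadhb encodes a subunit of the mitochondrial trifunctional protein of beta oxidation. Its member (chr5:30170261-30170827) had pileups of 33 in WT 1 and 30 in WT 2. The members of Ank and Hspa12a were weaker, with 16 and 19 in Ank and 13 and 12 in Hspa12a in WT 1 and WT 2.

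Most members were low peaks. Their median pileup was 16 in WT 1 (interquartile range 13 to 21, full range 8 to 137) and 17 in WT 2 (14 to 22, 8 to 156). The 4427 gene-body regions called in all 4 libraries had medians of 24 in edKO 1, 21 in edKO 2, 36 in WT 1 and 40 in WT 2. The members' medians in WT hearts were below the edKO medians of the regions that all hearts shared. The authors' −log10 p, which measures the summit against the local background of the same library, had a median over members of 8.10 in WT 1 and 9.02 in WT 2, with maxima of 79.4 and 103. It reached 10 in both WT hearts in 454 members, 20 in 39 members and 30 in 9 members.

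Strength was defined as the mean over WT 1 and WT 2 of the percentile that a region's −log10 p held within each list. Members had a median strength of 32.2, regions kept in 1 edKO heart 43.3 and regions kept in both 69.1. Only 16 members (0.589%) were above 75, against 1653 of the regions in all 4 libraries (37.3%). The 10085 gene-body regions of both WT hearts were then put into 10 groups of equal size by strength. WT-only regions made up 62.4% of the weakest group, 31.1% of the fifth and 0.496% of the strongest. Calls in edKO 1 covered 27.0% of the weakest group and 99.3% of the strongest, and calls in edKO 2 covered 18.2% and 99.0%. In each of the 10 groups edKO 2 held fewer of the regions than edKO 1.

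**Figure D1:**
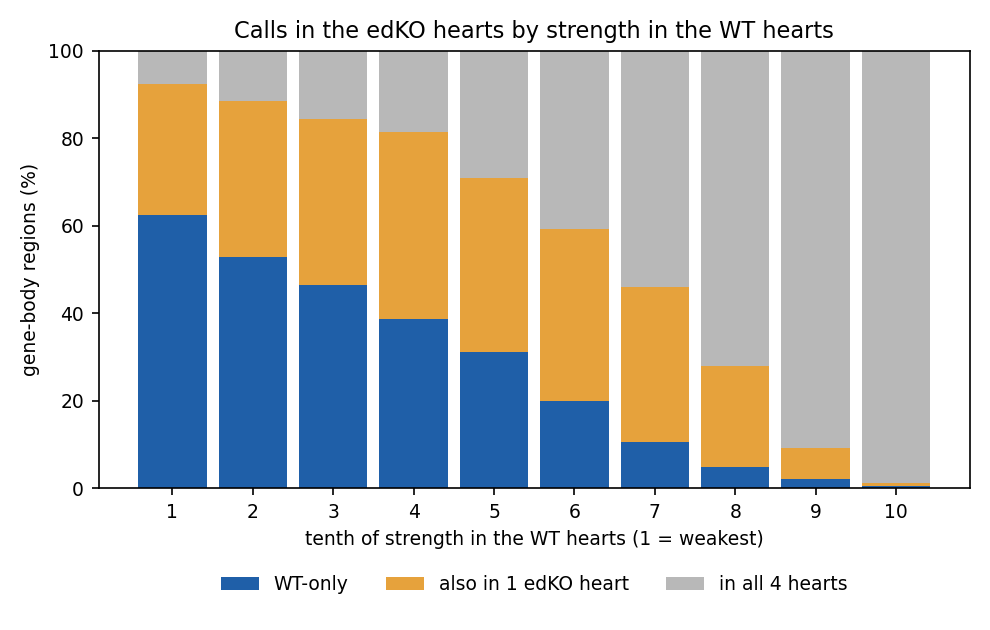
Stacked bars give the percentage of gene-body regions called in both WT hearts that were WT-only, also called in 1 edKO heart, or called in all 4 hearts, in 10 groups of WT strength from the weakest (1) to the strongest (10). The WT-only share goes down at every step, 62.4% in group 1 and 0.496% in group 10.

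The lists themselves differed in length and in height between genotypes. The edKO lists held 27473 and 27142 peaks, and the WT lists 35279 and 38809. Of these, 35.2% and 33.0% lay inside gene bodies in edKO 1 and edKO 2, against 38.5% and 39.6% in WT 1 and WT 2. In regions called in all 4 libraries, the median ratio of the pileup to the WT mean was 0.647 in edKO 1 and 0.576 in edKO 2. Pileups were not scaled to the depth of the libraries. The lowest local background of any peak was 1.51 in edKO 1 and 1.92 in edKO 2, against 1.81 in WT 1 and 1.80 in WT 2. Over an equal number of the strongest peaks in each list, the median fold over the local background was lowest in edKO 2, at 7.61. It was 10.2 in edKO 1, 10.8 in WT 1 and 11.5 in WT 2. What part these differences in height and fold have in the number of members was not tested. When each list was shortened to the length of the shortest, there were 1173 WT-only and 286 edKO-only gene-body regions, against 2718 and 91 with the lists as deposited. In total, 91 of 4810 gene-body regions of both edKO hearts were edKO-only (1.89%). Across all regions of both WT hearts, gene ends and intergenic regions included, 5440 of 28087 were WT-only (19.4%).

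The values of the 2 WT hearts were also compared with each other. Spearman's rank correlation of −log10 p between WT 1 and WT 2 was 0.371 across the 2718 members and 0.854 across the 4427 regions in all 4 libraries. These points share the same pair of libraries, and the members span a narrower range of heights. The WT 2 value was the higher in 1575 members (57.9%). The 2 WT summits lay a median of 37 bp apart in members and 27 bp apart in regions called in all 4 libraries, and within 50 bp of each other in 60.9% and 70.5%. Among regions of strength 30 to 50 the order was the other way round, with medians of 31 bp in members and 44 bp in regions called in all 4 libraries, and 67.3% and 56.0% within 50 bp.

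**Figure D2:**
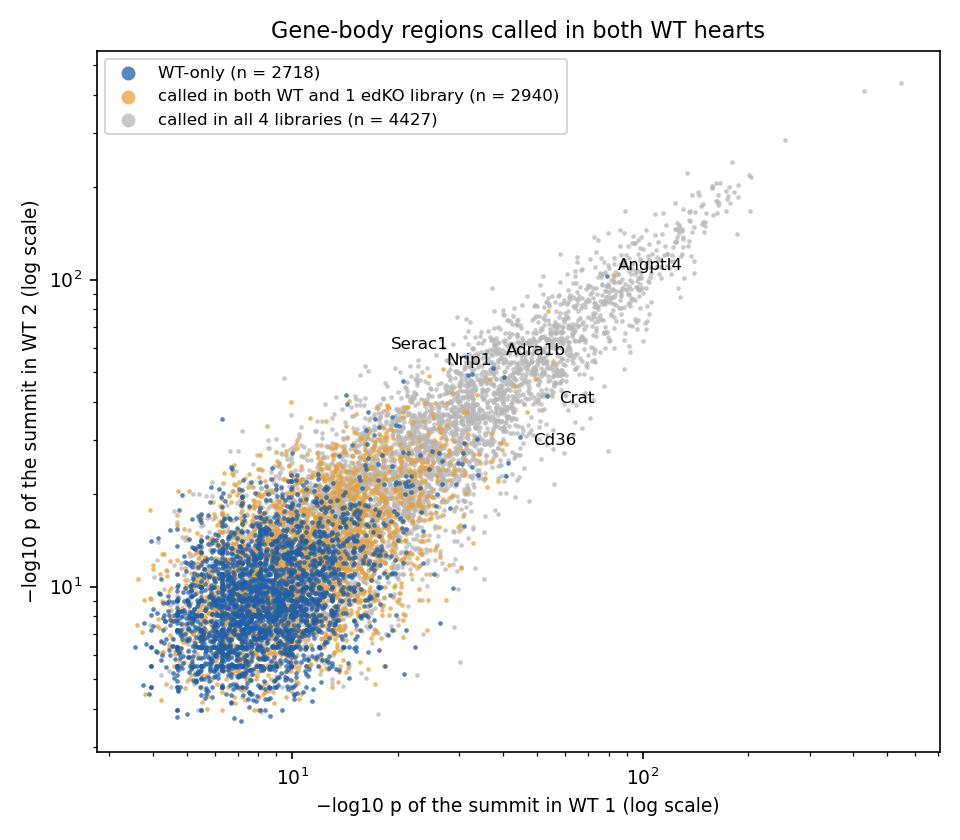
Each point is a gene-body region called in both WT hearts, placed by its −log10 p in WT 1 (horizontal, log scale) and WT 2 (vertical, log scale), and coloured by whether it was WT-only, also called in 1 edKO library, or called in all 4. The WT-only points crowd at the low end, and Angptl4, Crat, Nrip1, Adra1b, Serac1 and Cd36 stand among regions that were mostly called in all 4 libraries.

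A few members were tall, and most gene-body regions of like height were called in all 4 libraries. The tallest (chr17:33778968-33779986) was in Angptl4, a classical PPAR target whose secreted product blocks lipoprotein lipase. It had no peak in edKO 1 or edKO 2, against pileups of 137 in WT 1 and 156 in WT 2. At the higher of the 2 WT backgrounds a pileup of 29 would have been enough for p of 0.001, the least stringent value in the lists. Of the 155 gene-body regions with −log10 p at least as high in both WT hearts, itself included, 153 were called in both edKO hearts. It was also the widest member, at 1019 bp. At the gene end next to it (chr17:33781130-33781508) a peak was called with a pileup of 14 in edKO 1 and not called in edKO 2, against 52 in WT 1 and 54 in WT 2.

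Next came Crat, the carnitine acetyltransferase of mitochondria (chr2:30409459-30409945), with 88 in WT 1 and 77 in WT 2. Of 561 gene-body regions at least as strong, 556 were called in both edKO hearts. The Crat gene end 5 kb away (chr2:30415218-30416439) was open in all 4 libraries, with 90 and 68 in edKO 1 and edKO 2, against 168 and 151 in WT 1 and WT 2. Nrip1 encodes RIP140, a corepressor of nuclear receptors. Its member (chr16:76293695-76294293) had 50 in WT 1 and 57 in WT 2 with summits 2 bp apart, and the nearest edKO peak lay 78099 bp away. The Nrip1 start region was called in every library, at 35 and 26 in edKO 1 and edKO 2, against 69 and 82 in WT 1 and WT 2. At these gene ends both edKO pileups were below both WT pileups. Lower edKO pileups were also the median pattern of gene-body regions called in all 4 libraries. The median ratio to the WT mean there was 0.647 in edKO 1 and 0.576 in edKO 2. At the other end of Crat a region (chr2:30399345-30399712) was WT-only, with 24 in WT 1 and 23 in WT 2.

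Adra1b, the alpha-1B adrenergic receptor, held 4 WT-only regions among 7 gene-body regions of both WT hearts, and the other 3 were called in all 4 libraries. The strongest (chr11:43820678-43821577) had 54 in WT 1 and 68 in WT 2, and the next (chr11:43790354-43790849) had 45 and 39. A small edKO 2 peak with a pileup of 9 began 206 bp beyond the edge of the strongest. Elsewhere in the gene, a region with WT pileups close to those at chr11:43790354-43790849 kept its calls. This region, at chr11:43835865-43836796, had 29 in edKO 1 and 21 in edKO 2, against 42 in WT 1 and 46 in WT 2.

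**Figure D3:**
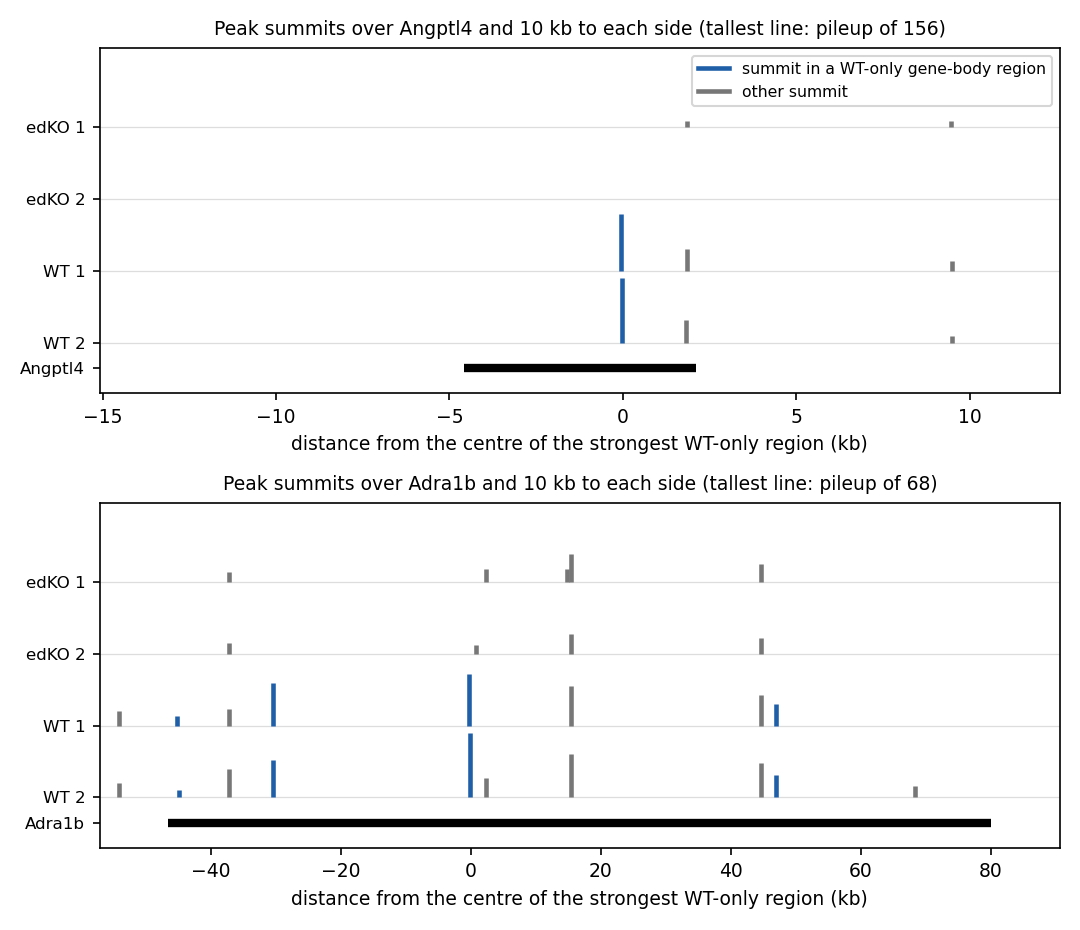
Vertical lines mark the summits of peaks over Angptl4 (above) and Adra1b (below) and 10 kb to each side in edKO 1, edKO 2, WT 1 and WT 2, with height in proportion to the pileup (tallest line 156 in the upper panel and 68 in the lower) and distance in kb from the centre of the strongest WT-only region. Summits in WT-only regions are absent from both edKO rows, and several neighbouring summits of Adra1b are present in all 4 rows.

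Cd36, which carries fatty acids across the plasma membrane, had 53 in WT 1 and 38 in WT 2 at its member (chr5:17880789-17881221), 7954 bp into the gene. Its 4 other gene-body regions of both WT hearts were all kept in edKO 1 alone, with pileups of 9 to 14 there, against 14 to 37 in WT 1 and 14 to 37 in WT 2. The start region of Cd36 (chr5:17888672-17888965) was WT-only as well, with 14 in WT 1 and 9 in WT 2. No Cd36 region of both WT hearts was called in edKO 2. Mlycd, the malonyl-CoA decarboxylase that relieves the block on carnitine palmitoyltransferase, had 61 and 60 in WT 1 and WT 2 (chr8:119399300-119399687). Its start region was called in all 4 libraries, at 33 and 26 in edKO 1 and edKO 2, against 103 and 94 in WT 1 and WT 2. Eci1, an isomerase for the oxidation of unsaturated fatty acids, had 48 and 57 in WT 1 and WT 2 (chr17:24429171-24429650).

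The rest of the 30 strongest were spread over genes of varied function. Scn4a, the sodium channel of skeletal muscle, had 58 in WT 1 and 77 in WT 2, and its gene-end region (chr11:106366290-106366622) was also WT-only, with 27 and 28. A region shared by Npc1, the lysosomal cholesterol exporter, and Rmc1 had 61 and 45 in WT 1 and WT 2. Serac1, a gene of phosphatidylglycerol remodelling, had 41 and 64. Dglucy, Ubash3a, Slfn2, Nme8, Cblb, Ces1e, Vstm4, Palld, Tmem104, Ptp4a3, Pde7b, Rftn1, Iqsec1, Camsap2, Cdk18, Ip6k3, Rgl1 and Ripor2 also held members among the 30. Apart from Angptl4 and Crat, pileups among the 30 ran from 25 to 77 over both WT hearts, and the pileup needed for p of 0.001 at the WT background ran from 7 to 23. By chromosome, 6 of the 30 lay on chromosome 17 and 5 on chromosome 11. These chromosomes held 442 and 807 of the 10085 gene-body regions of both WT hearts. Of the 30, 21 stayed members under each of the 10 other settings that kept all 4 libraries. Angptl4, Slfn2, the Npc1 and Rmc1 region, Vstm4, Mlycd and Eci1 left only when the margin around gene ends was 5 kb. The stronger Adra1b region and Pde7b left only when an edKO peak within 1 kb was not allowed.

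**Figure D4:**
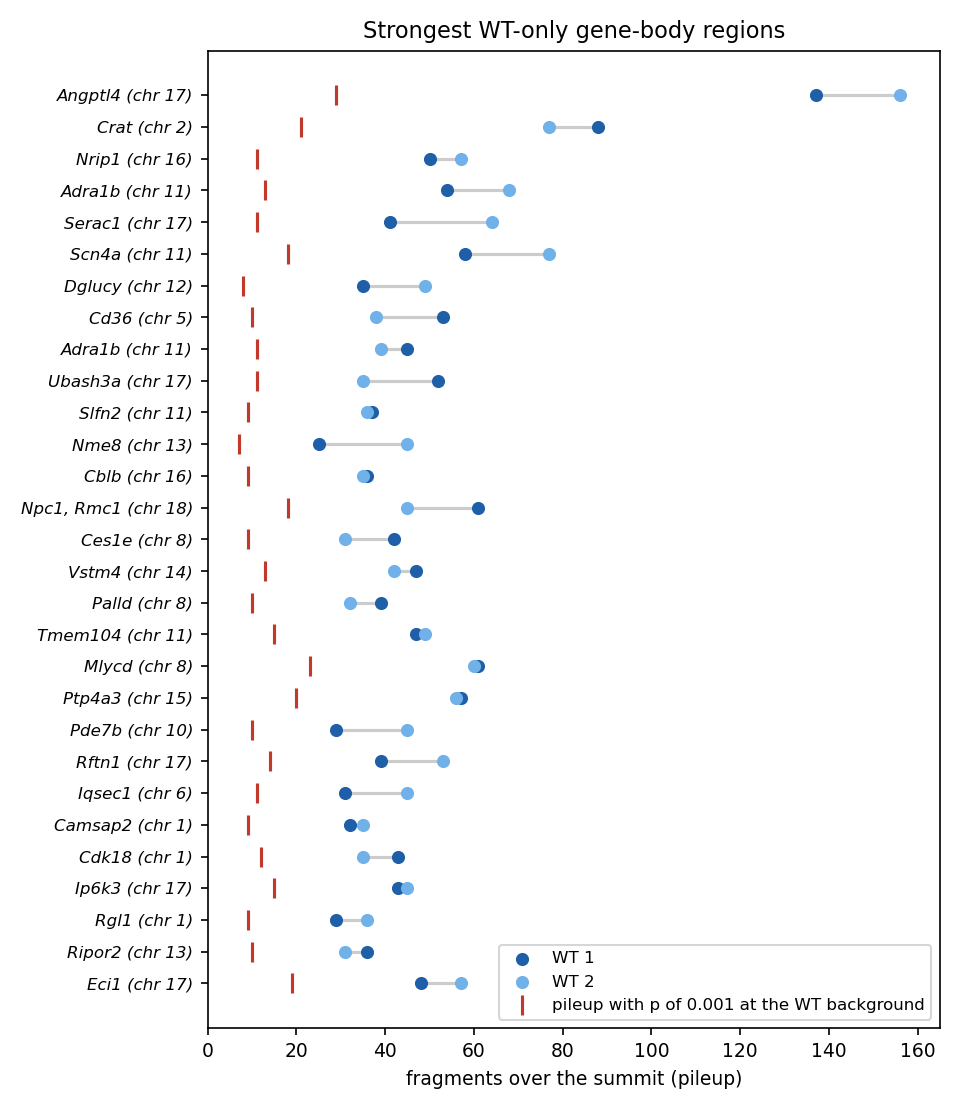
For 29 of the 30 strongest WT-only gene-body regions, named by host gene and chromosome and ordered by strength from the top, dots give the pileup in WT 1 and WT 2, and red ticks the pileup that would give p of 0.001 at the higher WT background. Every dot lies above its tick, with Angptl4 at 137 and 156 far to the right. No edKO dots are drawn because none of these regions was called there.

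The genes of the deleted receptors each held 1 member. In Rxra it lay 3420 bp from the gene start (chr2:27679692-27680039) and had 40 in WT 1 and 45 in WT 2. In Rxrb it lay 2405 bp from the start (chr17:34034095-34034339) and had 46 and 42. The start regions of both genes were called in all 4 libraries. That of Rxra had 45 and 23 in edKO 1 and edKO 2, against 33 and 61 in WT 1 and WT 2, values that overlap. That of Rxrb had 74 and 56 in edKO 1 and edKO 2, against 126 and 110 in WT 1 and WT 2. Peak lists do not show whether exons were deleted, so these values do not check the genotype. Within 5 Mb of Rxrb, 16 of 60 gene-body regions of both WT hearts were WT-only (26.7%), and within 5 Mb of Rxra 21 of 109 (19.3%), against 26.8% on all other chromosomes.

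Members were narrow and lay deep in long genes. Their median width was 327 bp, against 384 bp for regions kept in 1 edKO heart and 530 bp for regions in all 4. The widest after Angptl4 lay in Adra1b (900 bp) and in Lrrc8d (894 bp), which encodes a subunit of volume-regulated anion channels. Their median distance to the nearest gene end was 22058.5 bp, against 18472.5 bp and 13427 bp. Of the 2141 members in genes with a known strand, 6.91% lay in the part of the gene nearest the start when each gene was cut into 10 equal parts, against 14.1% of 3505 regions in all 4. At the other end of the gene the shares were 8.97% and 6.48%. Starts annotated inside the gene followed the same order, as 2.82% of members overlapped a RefSeq start window, against 5.27% of regions kept in 1 edKO heart and 982 of 4269 regions in all 4. All these measures move with height as well. Among regions of strength 30 to 50 the order was the same, with median widths of 329, 374 and 459 bp, distances to a gene end of 21498.5, 18764 and 15023.5 bp, and start overlaps of 2.65%, 4.67% and 13.7%. Regions of the same libraries are not replicates, so these differences carry no test.

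The median distance from a member to the nearest region called in all 4 libraries was 23356.5 bp, against 19866 bp over all gene-body regions of both WT hearts. Such a region lay within 5 kb of 319 members (11.7%), against 15.3% of all those regions, and at strength 30 to 50 within 5 kb of 12.2% of members and 14.0% of regions in all 4. An edKO peak lay within 1 kb of 243 members (8.94%), and the median distance to the nearest was 10338 bp. In 131 genes at least 2 members fell within 10 kb, and in 7 genes 3 did. The tightest run was in Tmod1, a capping protein of actin thin filaments, where 3 members lay within 2172 bp (chr4:46064218-46066389) with pileups of 22 to 25 in WT 1 and 20 to 22 in WT 2. Runs of 3 also lay in Cd300lg (2360 bp), over Npc1 and Rmc1 (2457 bp), in Gse1 (4488 bp), Atf7ip (5680 bp) and Ip6k3 (7513 bp). None of these 6 runs held a gene-body region of both WT hearts that was called in an edKO library. Most runs in the 131 genes held none either, and such short spans leave little room for another region.

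The members lay in 2000 host genes, with 1 member in 1520 of them and at least 5 in 24. Host genes had a median length of 86745 bp, against 58251 bp for the 2953 hosts of regions in all 4 and 17329 bp for all protein-coding genes. The WT-only share of gene-body regions was 19.3% in genes of up to 20 kb and 31.4% in genes over 200 kb, while the median strength of those regions was 57.4 and 47.3. In 923 hosts (46.2%) a different gene-body region was called in all 4 libraries, and in 790 hosts every gene-body region of both WT hearts was WT-only. Of 1565 hosts with a known strand, 980 (62.6%) had a start region called in all 4 libraries, 363 (23.2%) had none in any library and 32 (2.04%) had a WT-only start region. Among 2348 hosts of regions in all 4, the shares were 52.2%, 34.7% and 1.96%.

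The genes with the most members were long. They were picked by their member counts, so high WT-only shares follow in part from the choice. Over all gene-body regions of both WT hearts the share was 27.0%, and in genes over 200 kb 31.4%. Nav2, a neuron navigator protein, held 7 among 22 gene-body regions of both WT hearts. Prkce, protein kinase C epsilon, held 7 of 17, and Arhgap26, a GTPase-activating protein, 7 of 25. Palld, which encodes the actin-binding palladin, held 6 of 10, with pileups of 10 to 39 in WT 1 and 11 to 32 in WT 2. Hivep3, a zinc finger transcription factor, held 6 of 8, and Dpf3, a subunit of the BAF chromatin remodelling complex active in heart and muscle, 6 of 9. Rad51b, a DNA repair protein, held 6 of 12, Kalrn, a guanine nucleotide exchange factor, 6 of 16, and Gse1 6 of 21. WT-only regions and regions called in every library lay side by side in these genes. In Nav2, 10 gene-body regions of both WT hearts were called in all 4 libraries, and in Prkce 7 were.

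Members were then read by gene function in 16 lists, which together hold 266 members (9.79%). Each share is of the gene-body regions of both WT hearts in that list, beside the 27.0% over all such regions, with an exact 95% Clopper-Pearson interval that covers counting error only. All 16 intervals included 27.0%. They treat regions as independent, while regions of the same gene and the same 4 libraries are not, so this does not show that the lists are alike. The 27.0% is also not matched for strength. The median strength of a list's regions ran from 42.9 in cell cycle genes to 72.8 in oxidative phosphorylation and TCA cycle genes.

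Genes of fatty acid uptake and oxidation held 13 members of 48 regions (27.1%, 15.3 to 41.8), at a median member strength of 55.4, against 32.2 over all members. The 48 regions of the list had a median strength of 65.8, against 50.0 over all gene-body regions of both WT hearts. Over all those regions, 10.5% were WT-only in the group of strength 57.1 to 64.3 and 4.76% in that of 64.4 to 72.5. The share of this list was not tested against regions of like strength. The 13 members lay in 13 genes, led by Crat, Cd36, Mlycd and Eci1 above. Decr1, a reductase for unsaturated fatty acids, had 25 in WT 1 and 22 in WT 2, and Cpt2, the inner carnitine palmitoyltransferase, had 31 and 36. Acsl1, Hadh, Acaca, Ppargc1a and Ppargc1b held weaker members. PPAR and other RXR partner targets held 11 of 33 (33.3%, 17.96 to 51.83). After Angptl4 the strongest were in Ucp3, a mitochondrial uncoupling protein, with 40 and 35 in WT 1 and WT 2, and in Abcg1, a sterol exporter under LXR control, with 27 and 29. Nuclear receptor genes held 22 of 77 (28.6%). After Rxra, Vdr, the vitamin D receptor, had 25 and 22, and Rarb, a retinoic acid receptor, 18 and 19. Coregulator genes held 17 of 74 (22.97%), and after Nrip1 the strongest was in Hdac9, a class IIa histone deacetylase, with 19 and 17.

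Among genes of the contractile cell, calcium handling and ion channels held 47 members of 149 regions (31.5%, 24.2 to 39.7) in 28 genes. Kcne1, a beta subunit of potassium channels, had 37 in WT 1 and 55 in WT 2, Ank2, the ankyrin that anchors transporters, 25 and 23, and Cacnb2, a calcium channel subunit, 20 and 24. Adrenergic, muscarinic and cyclic nucleotide signalling held 34 of 119 (28.6%). After Adra1b the strongest was in Rgs6, a regulator of G protein signalling, with 28 and 33. Sarcomere and Z-disc genes held 25 of 111 (22.5%, 15.1 to 31.4), led by Myom1, the M-band myomesin, with 26 and 29, Nebl, the Z-disc nebulette, with 17 and 21, and Synpo2 with 22 and 25. Cardiac transcription factor genes held 36 of 136 (26.5%), led by Mef2d with 44 and 57, Foxp1 with 33 and 43, and Nfatc2 with 48 and 45.

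Genes of glucose use and growth followed. Glycolysis and glucose uptake held 8 of 35 (22.9%) at a median member strength of 47.7 (59.1 over its 35 regions), led by Hk2, a hexokinase, with 34 in WT 1 and 50 in WT 2, and by the phosphofructokinase genes Pfkp, with 19 and 25, and Pfkfb2, with 18 and 18. Insulin, IGF, AMPK and mTOR signalling held 19 of 91 (20.9%), with the insulin receptor Insr at 31 and 26 and its adaptor Grb10 at 44 and 43. Oxidative phosphorylation and TCA cycle genes, which had only 12 gene-body regions, held 1 member, in Mdh1, the cytosolic malate dehydrogenase, at 36 and 42. Cell cycle genes held 6 of 24 (25.0%), led by Cdk14 with 20 and 31.

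Markers of the other cell types of the heart also held members. Fibroblast and matrix markers held 18 of 50 (36.0%, 22.9 to 50.8) at a median member strength of 23.2 (44.1 over its 50 regions), led by the laminin gene Lamc1 with 21 in WT 1 and 28 in WT 2 and by the actin regulator Gsn with 29 and 26. Endothelial and endocardial markers held 11 of 49 (22.4%) at a median member strength of 25.1 (44.4 over its 49 regions). They were led by Ece1 with 31 and 30, Prox1 with 22 and 23, and Kdr, a VEGF receptor, with 19 and 13. Prox1 was also in the list of cardiac transcription factors. Smooth muscle, pericyte and epicardial markers held 6 of 24 (25.0%), led by Mylk with 23 and 26, Cspg4 with 36 and 34, and Wt1 with 21 and 24. Blood, immune, neuronal and Schwann markers held 3 of 13 (23.1%), in Th, Cd4 and Ank1, at 11 to 20 in WT 1 and 16 to 20 in WT 2. With lists of equal length, where 16.3% of regions were WT-only, the fatty acid list held 10 of 40 (25.0%), the PPAR list 6 of 24 (25.0%), and the smooth muscle, pericyte and epicardial list 5 of 20 (25.0%). Calcium handling and ion channels then held 25 of 115 (21.7%) and glycolysis 6 of 28 (21.4%). Fibroblast markers held 5 of 31 (16.1%) and endothelial markers 3 of 31 (9.68%), and the other 9 lists ran from 6.67% to 18.9%.

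**Figure D5:**
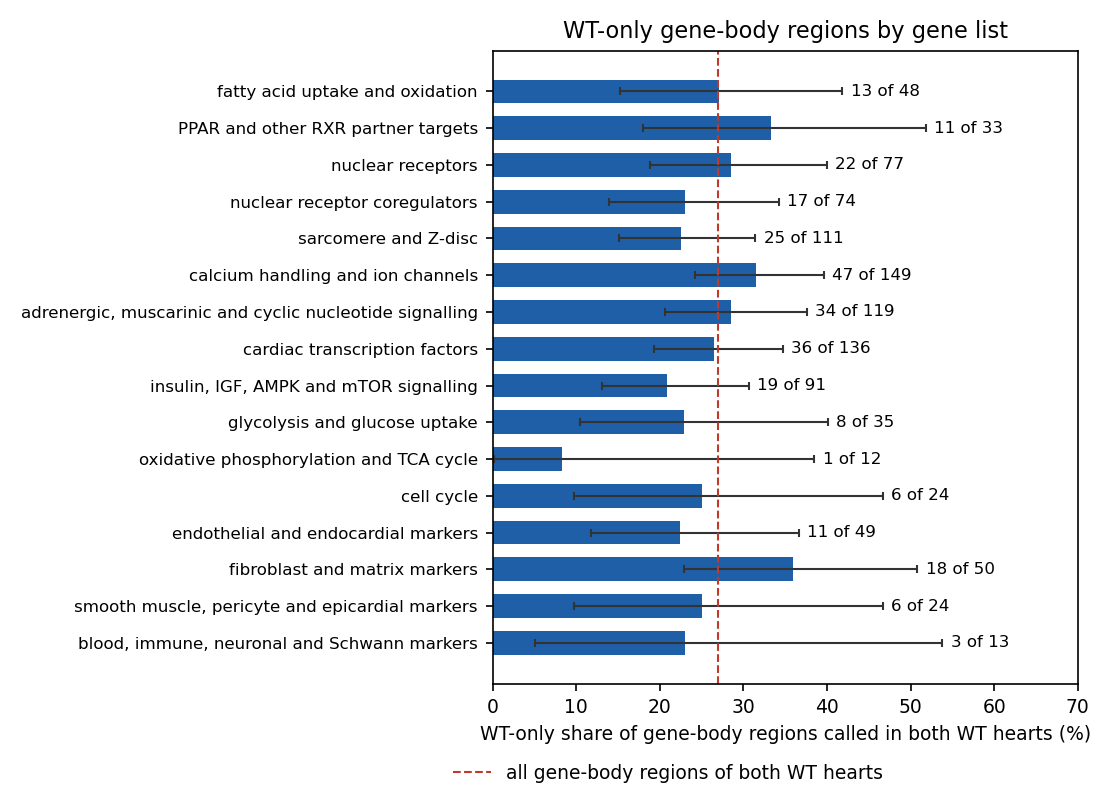
Bars give the percentage of gene-body regions called in both WT hearts that were WT-only in each of 16 gene lists, with exact 95% Clopper-Pearson intervals that cover counting error only and the counts at the right. The dashed line marks the 27.0% over all gene-body regions of both WT hearts, and all 16 intervals include it. The intervals treat regions as independent, and the line is not matched to the strength of each list's regions.

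At the limits of the rule the calls were close. The 3 weakest members lay in Jcad, Rreb1 and P3h2, with pileups of 9, 14 and 8 in WT 1 and 8, 11 and 9 in WT 2. Just outside the rule, a region of Pde3a, a cyclic nucleotide phosphodiesterase, was kept by an edKO 1 peak with a pileup of 7 and −log10 p of 3.75, and had 25 and 22 in WT 1 and WT 2. A region of Grk5, a G protein-coupled receptor kinase, was kept by an edKO 2 peak with a pileup of 8, and had 16 and 23 in WT 1 and WT 2. A region of Cry2, a repressor of the circadian clock, was kept by an edKO 1 peak with a pileup of 15, and had 36 and 37 in WT 1 and WT 2. The members nearest to the margin lay 1012 bp from a gene end in Rrbp1 and Dcp1b and 1021 bp in Kif12, and regions of Crtap, Septin1 and Clta fell outside it at 999, 998 and 993 bp. Of the 2940 regions called in both WT hearts and 1 edKO heart, 2296 (78.1%) were kept in edKO 1 and 644 in edKO 2.

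The opposite pattern was rare and low in the lists as deposited, where the edKO lists were the shorter ones. With lists of equal length there were 286 edKO-only regions, against 1173 WT-only. The 91 edKO-only gene-body regions had a median −log10 p of 5.69 in edKO 1 and 6.58 in edKO 2. The strongest lay in Zfr2, with pileups of 23 in edKO 1 and 26 in edKO 2, in Flnc, the muscle filamin, with 35 and 44, and in Hdgf, a growth factor, with 34 and 29. None was called in WT 1 or WT 2.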

How the data were processed

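Nuclei of 4 newborn mouse hearts, 2 edKO and 2 WT, were profiled by ATAC-seq, and groups were taken from the sample titles and genotype labels. MACS2, Bowtie2, SAMtools, cutadapt, bcl2fastq and CASAVA are the tools named in the submitters' processing notes, with GRCm38 (mm10) as the build. Tool versions, the Tn5 shift, the handling of duplicates and the depth of each library were not stated in the sources used here. The authors deposited 1 peak list per library. Each list gives a score, the fold enrichment (a ratio to the library's own local background), −log10 p, −log10 q-value and the offset of the summit, and these values are the authors'. The deposited score, the whole part of 10 times −log10 p in at least 99.98% of peaks, and the deposited q-value were not used. Peaks were called per library, so no normalization makes heights comparable between libraries.

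Peaks overlapping by at least 1 bp were merged, and regions were placed by the protein-coding genes of RefSeq GRCm38.p6. Pileup and background were solved from the fold, taken as (pileup + 1)/(background + 1), and from the Poisson −log10 p, and at least 99.99% of pileups came out whole within 0.001. Genes without a strand in the start table, those of chromosome 18 included, were left out of strand-based values. Scripts were tested on simulated data with known answers. Python 3.11.15, numpy 2.4.6, pandas 2.3.3, scipy 1.17.1 and matplotlib 3.10.9 were used.

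The genes named are those of the 30 strongest members, the 10 hosts with the most members, up to 3 of the strongest members of each list, Rxra and Rxrb, regions at the limits of the rule, the densest runs, the 3 widest members and the 3 strongest edKO-only regions. Some items that this rule names are not reported here. Others are said to be chosen after their values were seen, which holds also for the start windows and microRNAs, Decr1, Cpt2, Acsl1, Hadh, Acaca, Ppargc1a and Ppargc1b. The members and the lists were chosen with earlier results of these data known. With 2 hearts per genotype an exact permutation test could not give a p below 0.333, and none was run. Intervals cover counting error only.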

Additional observations from a re-analysis of the deposited data

How the results depend on the processing

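With 14 alternatives for each count, the number of 2718 WT-only gene-body regions moved by over 1.5 times under 6 and the 91 edKO-only regions under 7. When all 4 lists were limited to peaks with −log10 p of 10 or more there were 1716 WT-only regions (32.9% of those of both WT hearts) and 11 edKO-only. With that threshold in the WT lists alone there were 455 (8.74%) and 541, since edKO peaks were then not thinned. With lists of equal length there were 1173 (16.3%) and 286. The WT-only share was 24.9% with no margin around gene ends, 29.0% with a margin of 5 kb and 24.5% when an edKO peak within 1 kb was not allowed, with counts within 1.5 times of the reported one.

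Leaving out 1 library gave 3376 to 6670 WT-only regions, shares of 33.3 to 49.7% and 216 to 2773 edKO-only regions. WT-only regions numbered 5022 without edKO 1, 3376 without edKO 2, 6670 without WT 1 and 5303 without WT 2, which by construction need fewer lists to decide a call. Other overlaps, merging distances and summit windows moved no count by over 1.5 times. The number of host genes ran from 427 to 3718, the share of members above strength 75 from 0.375 to 3.52% and the median distance to a gene end from 18687.5 to 28811 bp. In lists of equal length, added after the data were seen, all gene lists had a lower share except the oxidative phosphorylation list and the smooth muscle list. No paired analysis was possible because the results come from no test and the replicate numbers are not labelled as shared between the genotypes. The lowest pileup called was 6 in edKO 1 and 7 in the other libraries, and a missing call does not show closed chromatin.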

Other observations

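Chromosome 17 had a high WT-only share, at 139 of 442 gene-body regions of both WT hearts (31.4%), against 27.0% over all chromosomes. Chromosome 12 was nearly the same, at 118 of 377 (31.3%). The X chromosome had the lowest share, at 20 of 113 (17.7%). On chromosome 17 the share was 26.7% within 5 Mb of Rxrb, 26.8% at 5 to 10 Mb, 28.4% at 10 to 20 Mb and 36.4% farther away. Of the 37 members above strength 70, 6 lay on chromosome 17, as did 105 of the 2316 gene-body regions of both WT hearts above that strength. These are values of single chromosomes in 4 libraries and carry no test.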
